A study of Mus musculus with 6 samples.

Results

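*Tdpoz1* to *Tdpoz5* are a cluster of related protein-coding genes on mouse chromosome 3, and the DPPA4 peaks within 50 kb of each gene body were taken from both deposited peak lists. The cluster comprised 5 of 21938 protein-coding genes of GENCODE vM21, and its windows held 69 of 99695 DPPA4 regions. TDPOZ proteins carry a TRAF (MATH) domain and a POZ (BTB) domain, the arrangement of the speckle-type protein SPOP, which brings substrates to a cullin ubiquitin ligase. The genes are known as transcripts of oocytes and of the early mouse embryo, around the time when the zygotic genome becomes active. DPPA4 is a small DNA-binding protein of pluripotent cells and early embryos, known as an upstream activator of the 2-cell programme.

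The cells were mESCs of a BL6/129 hybrid background in which EHMT2, a histone methyltransferase of H3K9me2, carried a dTAG degradation tag, together with a GFP reporter under the MERVL retroviral promoter (cell line EHMT2-dTAG-mcherry-mervl-gfp, isolated as clonal colonies). Every library came from cells given dTAG for 72 h, so EHMT2 depletion was common to all groups and no untreated control is part of these lists. Live cells were sorted into GFP-negative cells, the mESC state, and GFP-positive cells, the 2-cell-like state (2CLCs), as reported by that 1 promoter. CUT&RUN for DPPA4 was made in 2 libraries of each state, and each deposited peak list pools the 2 libraries of its state. There is therefore no spread between replicates, no test between the states and no p-value below. Each interval given is the Wilson 95% interval of a share and stands for counting error alone. The lists carry no expression, so the sorted states could not be checked against marker genes. The methods give an equal depth of sequencing for all samples, but the number of reads kept after filtering is unknown. The lists hold 83602 GFP-negative and 54642 GFP-positive peaks on the mouse chromosomes. Fold enrichment (the ratio of fragments at a summit to the local background) and −log10 q (the significance of a peak after adjustment) are given only in relation to other peaks of the same list. Reads matching several places had been assigned to 1 place each, so in sequence with several copies the occupied copy cannot be told apart from the others.

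Around the *Tdpoz* genes the 2CLC list was dense and the mESC list sparse. Within 50 kb of the 5 genes there were 69 GFP-positive peaks and 7 GFP-negative peaks, a ratio of 9.86, whereas the ratio over all mouse chromosomes was 0.654. These windows, 356.5 kb in all, held 19.4 GFP-positive peaks per 100 kb against 2.005 per 100 kb over the chromosomes. For GFP-negative peaks the same densities were 1.96 and 3.07 per 100 kb. GFP-positive peaks covered 16.4% of the windows and GFP-negative peaks covered 0.994%, beside 2.10% and 2.53% of the chromosomes.

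Each of the 7 GFP-negative peaks overlapped a GFP-positive peak. Peaks with 1 bp or more in common between the lists were joined into 1 region. Of the 69 regions, 62 held GFP-positive peaks alone (89.9%, 80.5 to 94.998), 7 were common to both lists (10.1%, 5.00 to 19.5) and 0 held GFP-negative peaks alone (0 to 5.27), where 3 counts of the total, the limit that a count of 0 allows, are 4.35%. Over all 99695 regions these shares were 18.4%, 35.0% and 46.7%. The direction of the excess was therefore opposite to that of the list lengths. More GFP-positive than GFP-negative peaks lay near 5 of 5 members, against 17.7% of protein-coding genes. Likewise 5 of 5 members had GFP-positive-specific but no GFP-negative-specific regions within 50 kb, against 8.18% of protein-coding genes.

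All 5 genes shared this pattern, with different densities. *Tdpoz2* (ENSMUSG00000103362.1, chr3:93651542-93652686, minus strand) had 12 GFP-positive peaks and 1 GFP-negative peak. *Tdpoz1* (ENSMUSG00000094084.2, chr3:93669333-93676310, minus strand) had 14 and 3. The windows of these neighbours overlap, so that 11 of their 15 regions lay near both. *Tdpoz4* (ENSMUSG00000060256.1, chr3:93796398-93797510, plus strand) had 28 GFP-positive peaks and 1 GFP-negative peak. *Tdpoz3* (ENSMUSG00000058005.3, chr3:93826020-93827117, plus strand) had 28 and 2. Of the 35 regions near these genes in the middle of the cluster, 21 lay near both. *Tdpoz5* (ENSMUSG00000094163.1, chr3:93960292-93961314, minus strand) had 19 and 2, and its window met that of no other member. The protein-coding gene at the median had 4 GFP-positive and 7 GFP-negative peaks within 50 kb. GFP-positive-specific regions numbered 11 near *Tdpoz1* and near *Tdpoz2*, 17 near *Tdpoz5*, 26 near *Tdpoz3* and 27 near *Tdpoz4*, where the median gene had 1 and the 95th percentile of genes was 7. Only 1.73% of protein-coding genes reached the 11 regions of the lowest members.

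**Figure D1:**
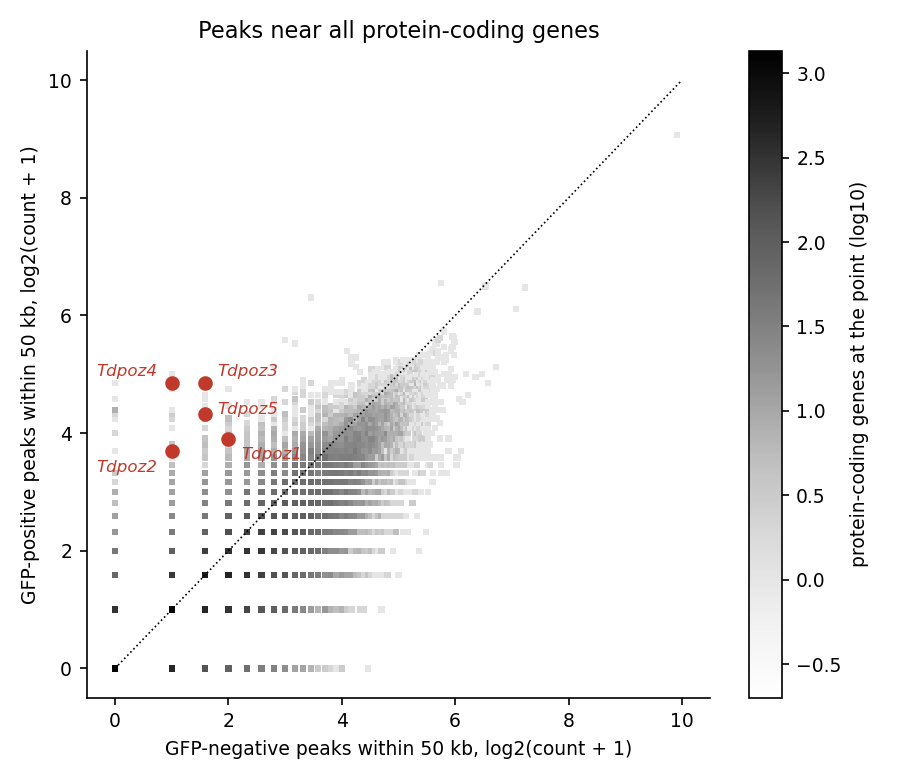
Peaks within 50 kb of every protein-coding gene, with GFP-negative peaks on the x axis and GFP-positive peaks on the y axis, both as log2(count + 1), grey squares for genes shaded by number and the dotted line for equal counts. The 5 *Tdpoz* genes (red) lie above the line, with 12 to 28 GFP-positive and 1 to 3 GFP-negative peaks.

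Promoters were examined first, taken as 2.5 kb upstream to 0.5 kb downstream of an annotated start site. A GFP-positive peak lay in the promoter of 4 of 5 genes, *Tdpoz1*, *Tdpoz3*, *Tdpoz4* and *Tdpoz5*, against 61.9% of protein-coding genes, and *Tdpoz2* had none. A GFP-negative peak lay in the promoter of 0 of 5 genes, against 70.0% of protein-coding genes. The combination of a GFP-positive and no GFP-negative promoter peak, held by 4 of 5 *Tdpoz* genes, occurred at 1.99% of protein-coding genes. These promoter peaks were weak, and 0 of them had a −log10 q of at least 5.

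*Tdpoz4* had 3 promoter peaks in the GFP-positive list. The summit 1042 bp upstream of the start had a fold enrichment of 3.76 and a −log10 q of 3.29, above 48.5% of the peaks of the list. The summit 1843 bp upstream had a fold enrichment of 3.13 and a −log10 q of 1.66. The other peak (chr3:93796696-93797958) had its summit 361 bp inside the single exon, with a fold enrichment of 3.25 and a −log10 q of 2.48. *Tdpoz3* had 2 promoter peaks. Its summit 1192 bp upstream had a fold enrichment of 3.68 and a −log10 q of 2.46, and its summit 699 bp upstream had 2.92 and 1.41, near the bottom of the list. At *Tdpoz1* the promoter held 1 peak (chr3:93677055-93677432), 791 bp upstream of the first start site, with a fold enrichment of 3.32 and a −log10 q of 1.69. *Tdpoz5* also held 1 (chr3:93960032-93961036), whose summit lay 446 bp inside the coding exon, with a fold enrichment of 3.89 and a −log10 q of 2.66. This peak lay wholly downstream of the start and counts as a promoter peak only through the 0.5 kb margin. The peak nearest to *Tdpoz2* (chr3:93650352-93650798) lay past the end of the gene, with a fold enrichment of 3.34 and a −log10 q of 1.48.

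The start sites themselves were not under a peak. From 250 bp upstream to 50 bp downstream of a start, peaks lay at 0 of 5 *Tdpoz* genes in the GFP-positive list and 0 of 5 in the GFP-negative list, against 58.1% and 66.4% of protein-coding genes. The annotated models of *Tdpoz3*, *Tdpoz4* and *Tdpoz5* begin at the start codon, with no leader annotated upstream of it. The sequences around the 7 GFP-positive promoter summits are shown because these peaks make up the contrast between the lists in the promoter windows. They are given in mm10, on the strand of each gene. Each has 50 bases on each side of the summit, with the 11 bases at the summit in capitals.
Tdpoz1, chr3:93677051-93677151, minus strand: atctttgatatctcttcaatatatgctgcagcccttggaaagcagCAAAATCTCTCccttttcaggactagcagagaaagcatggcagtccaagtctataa
Tdpoz3, chr3:93824778-93824878, plus strand: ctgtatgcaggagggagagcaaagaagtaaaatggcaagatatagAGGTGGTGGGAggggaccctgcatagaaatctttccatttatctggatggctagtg
Tdpoz3, chr3:93825271-93825371, plus strand: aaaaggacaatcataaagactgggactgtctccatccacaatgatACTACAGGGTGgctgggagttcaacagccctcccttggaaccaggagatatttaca
Tdpoz4, chr3:93794505-93794605, plus strand: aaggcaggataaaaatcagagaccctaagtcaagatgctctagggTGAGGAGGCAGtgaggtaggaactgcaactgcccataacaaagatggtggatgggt
Tdpoz4, chr3:93795306-93795406, plus strand: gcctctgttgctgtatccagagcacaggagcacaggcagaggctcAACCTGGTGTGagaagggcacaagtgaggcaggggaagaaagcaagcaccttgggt
Tdpoz4, chr3:93796709-93796809, plus strand: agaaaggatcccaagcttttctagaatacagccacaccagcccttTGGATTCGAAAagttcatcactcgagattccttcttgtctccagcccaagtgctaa
Tdpoz5, chr3:93960818-93960918, minus strand: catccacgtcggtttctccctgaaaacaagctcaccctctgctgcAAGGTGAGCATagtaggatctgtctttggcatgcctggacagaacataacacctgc
Each of these summits lay in sequence found 2 to 4 times in the genome.

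Gene bodies were free of GFP-negative peaks in 5 of 5 genes. Over all protein-coding genes 74.2% had such a peak over the body, and 54.2% of those within the length range of the members. In the GFP-positive list, 2 of 5 bodies lay under a peak, against 67.8% and 49.0%, so the count in this list was not above the background. Any peak over the body counts here, and both of these peaks are also among the promoter peaks above. The peak in *Tdpoz4* covered 73.2% of its 1113 bp and the peak in *Tdpoz5* covered 72.8% of its 1023 bp, from the first part of the coding sequence past the end of the gene. The windows around their summits aligned with 71.5% identity over 158 bp. The bodies of *Tdpoz1*, *Tdpoz2* and *Tdpoz3* had a covered share of 0%, although the coding sequences of the 5 genes are alike, with 73.4% (*Tdpoz4* and *Tdpoz5*) to 88.5% (*Tdpoz1* and *Tdpoz3*) nucleotide identity. Between the promoter windows of 2 genes the best alignment spanned 143 to 1943 bp, with none between *Tdpoz1* and *Tdpoz3*. It was longest between *Tdpoz2* and *Tdpoz3* (80.3% identity over 1943 bp), of which only *Tdpoz3* had promoter peaks.

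**Figure D2:**
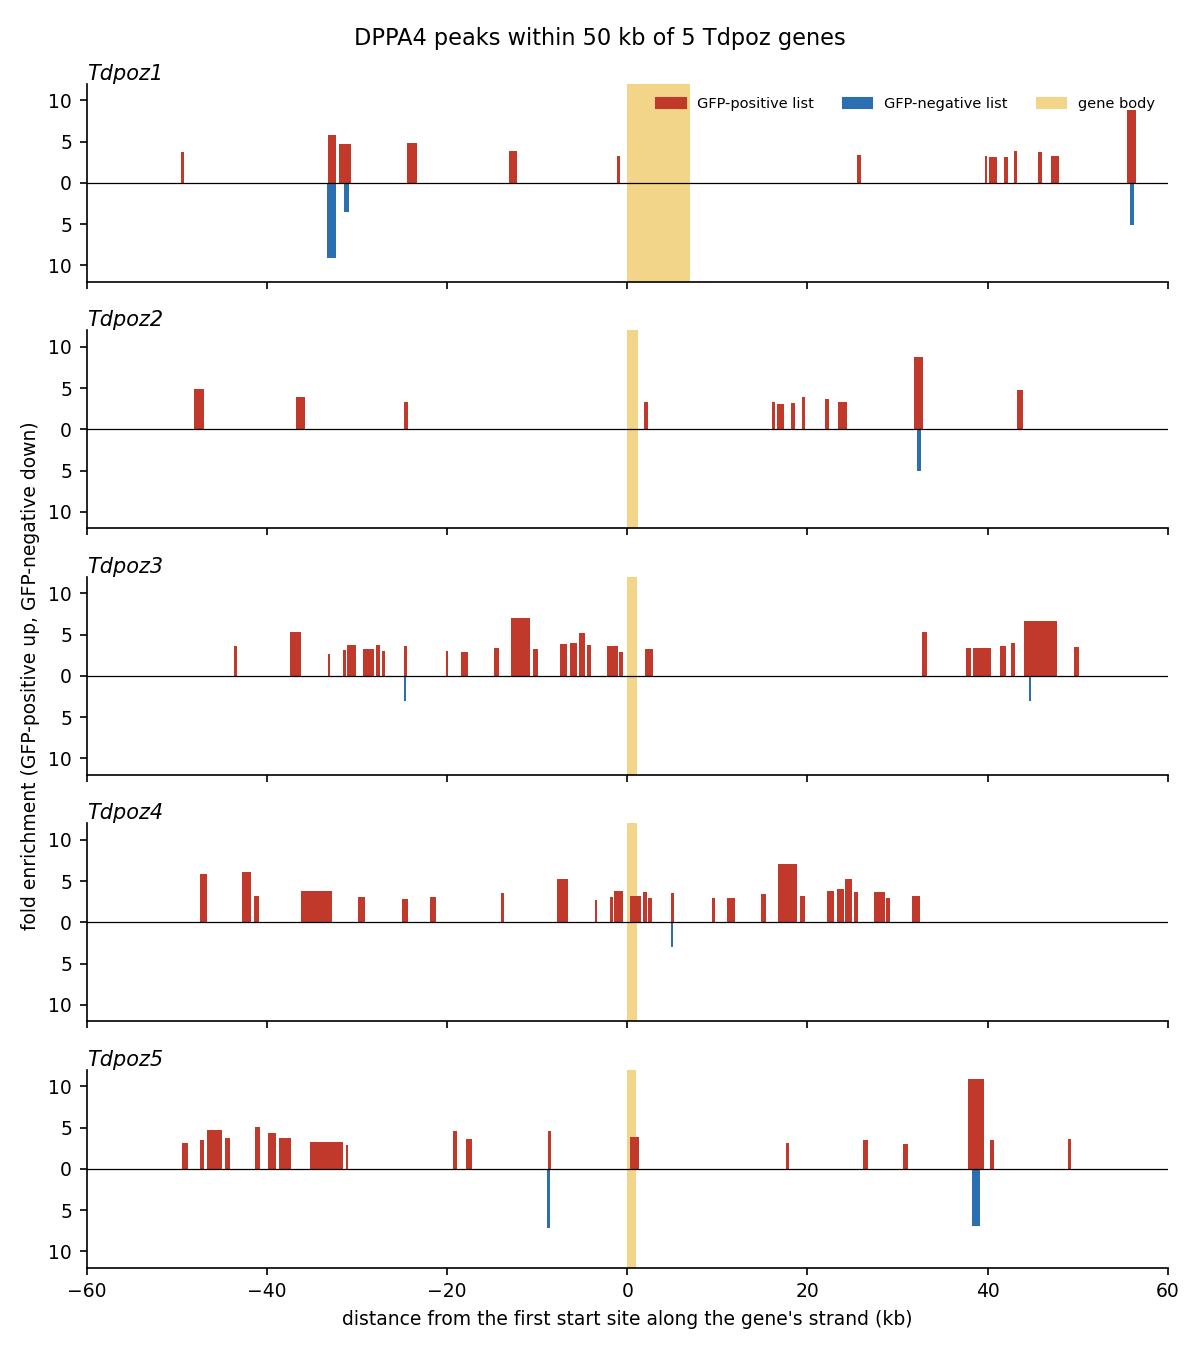
Peaks within 50 kb of each *Tdpoz* gene, with distance from the first start site along the strand of the gene on the x axis (kb) and fold enrichment on the y axis, GFP-positive peaks upward in red, GFP-negative peaks downward in blue and the gene body in yellow. Most peaks lie in the flanks, and each of the GFP-negative peaks sits opposite a GFP-positive peak.

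Most peaks lay in the flanks, which make up nearly all of each window, so their number there follows from length. *Tdpoz3* had 18 GFP-positive peaks upstream and 8 downstream, and *Tdpoz4* had 10 and 15. *Tdpoz5* had 12 upstream and 6 downstream, *Tdpoz1* had 5 and 8, and *Tdpoz2* had 3 and 9. GFP-positive peaks covered 22.6% of the flanks of *Tdpoz3* and 21.5% of those of *Tdpoz4*, the stretch between these genes being shared. The covered share was 15.96% at *Tdpoz5*, 9.75% at *Tdpoz1* and 8.21% at *Tdpoz2*. In the GFP-negative list the covered share of the flanks ranged from 0.1703% at *Tdpoz4* to 1.999% at *Tdpoz1*. Of the promoters, GFP-positive peaks covered 55.9% at *Tdpoz3*, 49.5% at *Tdpoz4*, 7.43% at *Tdpoz5*, 6.30% at *Tdpoz1* and 0% at *Tdpoz2*. Per base, the promoter was thus covered more than the flanks at *Tdpoz3* and *Tdpoz4*, and less at the other genes.

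Among the 69 GFP-positive peaks the median fold enrichment was 3.62 (2.71 to 10.9) and the median −log10 q was 2.37 (1.305 to 23.2), beside medians of 4.13 and 3.44 over the list. Regions with GFP-positive peaks alone had a median fold enrichment of 3.57 here and 3.55 over all such regions, so their strength was like that of their class. A −log10 q of at least 5 was reached by 10 of the 69 GFP-positive peaks (14.5%), against 37.7% of the list. In the GFP-negative list it was reached by 3 of 7 peaks (42.9%), against 41.6%.

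At that threshold 11 regions were left, of which 8 held GFP-positive peaks alone, 2 were common and 1 held a GFP-negative peak alone. Peaks below the threshold were left out, so some regions common in the full lists changed class. Those at chr3:93619813-93620829 and chr3:93870036-93873746 count among the 8, their GFP-negative peaks having 4.65 and 1.68. The GFP-negative peak alone lay 8652 bp upstream of *Tdpoz5*, where the GFP-positive peak had 4.18. The strongest GFP-positive peak near *Tdpoz5* (chr3:93921754-93923443) lay 38972 bp downstream of its start and had a −log10 q of 23.2, above 92.7% of the list, and the GFP-negative peak at the same place had 9.63, above 74.98% of its own list. *Tdpoz1* and *Tdpoz2* shared their strongest GFP-positive peak (chr3:93619813-93620829, −log10 q 14.2, above 85.4% of the list), in a region where the GFP-negative peak, the strongest and single one near *Tdpoz2*, had 4.65, above 57.2% of its own. *Tdpoz3* and *Tdpoz4* shared theirs, a broad GFP-positive-specific peak between them (chr3:93813165-93815241, −log10 q 14.3, above 85.5% of the list), 12631 bp upstream of *Tdpoz3* and 16991 bp downstream of *Tdpoz4*. Thus, in the full lists, the strongest 2CLC peak was shared with mESCs at 3 genes and specific to 2CLCs at 2 genes.

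A further peak of 3711 bp (chr3:93870036-93873746), 44696 bp downstream of *Tdpoz3*, had a GFP-positive −log10 q of 11.5, above 81.9% of that list. The GFP-negative peak there, the strongest near *Tdpoz3*, had 1.68, above 15.4% of its own list. Upstream of *Tdpoz4*, GFP-positive-specific peaks with a −log10 q of 7.88, 8.32 and 6.42 lay 47222, 42267 and 6867 bp from the start. The single GFP-negative peak near *Tdpoz4* had a −log10 q of 1.57. The strongest GFP-negative peaks lay near *Tdpoz1* and *Tdpoz5*. Upstream of *Tdpoz1* (32649 bp) the GFP-negative peak had a −log10 q of 13.96, above 81.8% of its list, while the GFP-positive peak had 6.12, above 67.8% of its own. At the site 8652 bp upstream of *Tdpoz5* the GFP-negative peak, the strongest near this gene, had 11.4, above 78.0%, and the GFP-positive peak 4.18, above 56.2%. The remaining GFP-positive-specific peaks over this threshold lay 5008 bp upstream of *Tdpoz3* (5.76) and 33192 bp downstream of it (5.21).

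Summits of both lists coincided in the 7 common regions, 2 to 64 bp apart. These regions also resembled each other in sequence. When the 300 bp around all 69 summits were aligned with each other (blastn, at least 100 bp), 6 of the 7 common regions formed pairs with another common region. The first pair is the strongest region near *Tdpoz5* and the strongest near *Tdpoz1* and *Tdpoz2*, 96.7% identical over 211 bp. Its summit sequence is wholly soft-masked (repeat) sequence with 62.0% and 63.0% GC, present 2530 and 2549 times in the genome. The summit windows of this pair are given with 60 bases on each side, the longest stretch present in both being in capitals. The summits lie at different places of the alignment, so the printed windows overlap only in the 31 bases in capitals.
Downstream of Tdpoz1 and Tdpoz2, chr3:93620280-93620400, plus strand: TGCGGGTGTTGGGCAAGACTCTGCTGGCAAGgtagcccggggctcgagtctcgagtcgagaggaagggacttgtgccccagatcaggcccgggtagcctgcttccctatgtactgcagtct
Downstream of Tdpoz5, chr3:93922250-93922370, minus strand: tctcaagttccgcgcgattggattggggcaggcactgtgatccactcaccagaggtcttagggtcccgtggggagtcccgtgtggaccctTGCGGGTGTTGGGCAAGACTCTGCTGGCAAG
A GFP-positive-specific region 42267 bp upstream of *Tdpoz4* also belonged to this sequence group, with 84.7% and 86.0% identity to the pair and a copy number of 54.

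The second pair joins a region upstream of *Tdpoz1* (chr3:93706976-93708248) and the broad region downstream of *Tdpoz3*, 81.7% identical over 219 bp. Its GC content was 65.0% and 65.5%, its soft-masked share 11% and 0%, and its copy number 1 and 2. These windows therefore stand for GC-rich sequence that is not a dispersed repeat, and the capitals again mark the longest stretch present in both. Here and in the third pair, too, the printed windows overlap only in part.
Upstream of Tdpoz1, chr3:93707422-93707542, plus strand: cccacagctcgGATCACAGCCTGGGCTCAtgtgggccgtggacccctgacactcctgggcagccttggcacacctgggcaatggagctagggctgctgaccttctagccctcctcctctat
Downstream of Tdpoz3, chr3:93870672-93870792, plus strand: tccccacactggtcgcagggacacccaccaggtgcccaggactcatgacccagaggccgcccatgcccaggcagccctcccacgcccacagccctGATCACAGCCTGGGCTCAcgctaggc
The third pair joins the sites of the strongest GFP-negative peaks upstream of *Tdpoz1* and of *Tdpoz5*, 96.3% identical over 244 bp. With 45.5% and 44.5% GC it was not GC-rich, and it was mostly soft-masked, with a copy number of 3 and 26.
Upstream of Tdpoz1, chr3:93708898-93709018, plus strand: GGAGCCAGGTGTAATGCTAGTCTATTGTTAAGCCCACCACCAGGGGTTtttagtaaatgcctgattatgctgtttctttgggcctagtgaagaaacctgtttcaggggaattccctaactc
Upstream of Tdpoz5, chr3:93969911-93970031, plus strand: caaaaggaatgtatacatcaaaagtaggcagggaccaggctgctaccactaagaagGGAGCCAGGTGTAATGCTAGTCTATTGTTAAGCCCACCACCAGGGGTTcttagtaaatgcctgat
Over 60% GC was found in 4 of the 7 common summits (57.1%, 25.05 to 84.2) and in 3 of 62 GFP-positive-specific summits (4.84%, 1.66 to 13.3). Over all regions it was found in 51.01% of common and 7.48% of GFP-positive-specific summits, so the contrast near the *Tdpoz* genes was that of the whole lists.

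The 2CLC-specific regions lay more often in sequence with several copies in the genome than regions of their class did. A copy number of 2 or more (the median number of genomic matches of the 31-mers in the 200 bp around the summit) was found at 48 of 69 summits (69.6%, 57.9 to 79.2), against 17.4% of all regions. Among GFP-positive-specific regions it was 42 of 62 (67.7%, 55.4 to 78.0), against 36.5% of that class. High copy numbers were less usual, with 10 or more in 5 of 62 (8.06%, 3.49 to 17.5) against 24.9%. In 29 of these 42 all copies lay on chromosome 3 within 1 Mb of the cluster.

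The genes differed in this respect. Near *Tdpoz5* 19 of 19 regions had a copy number of 2 or more. Near *Tdpoz4* 15 of 28 and near *Tdpoz3* 14 of 28 had a copy number of 1, beside 4 of 14 near *Tdpoz1* and 3 of 12 near *Tdpoz2*. At the 21 summits with a copy number of 1, where most 31-mers occur once, 20 regions were GFP-positive-specific and 1 was common. Over all regions, 11615 of the 82354 with a copy number of 1 were GFP-positive-specific. Of the 10 regions with a GFP-positive −log10 q of at least 5, 3 had a copy number of 1, and they lay 6867 bp upstream of *Tdpoz4*, 5008 bp upstream of *Tdpoz3* and 33192 bp downstream of *Tdpoz3*.

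**Figure D3:**
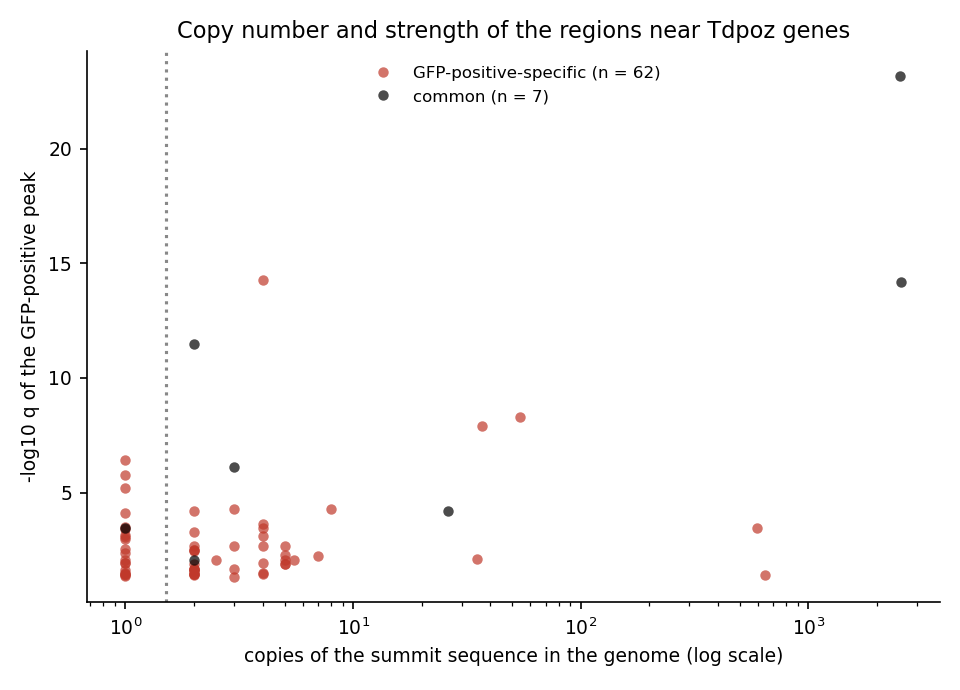
The 69 regions near *Tdpoz* genes, with the number of copies of the summit sequence in the genome on the x axis (log scale) and the −log10 q of the GFP-positive peak on the y axis, red for GFP-positive-specific and black for common regions. Left of the dotted line are the 21 single-copy summits, and the common regions at 2530 and 2549 copies hold a GFP-positive −log10 q of 23.2 and 14.2.

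In the alignment of summits, 32 of 69 windows (46.4%) matched another, in 9 sequence groups. Apart from the group of the dispersed pair, 0 groups mixed common with GFP-positive-specific regions. The group with the most members held 8 GFP-positive-specific regions. A group of 4 joined the peaks in *Tdpoz4* and *Tdpoz5* with those in the pseudogenes *Gm5541* and *Gm9124*, that is, summits in *Tdpoz* coding sequence or in sequence like it.

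Another group of 6 GFP-positive-specific regions led to the first exon of *Tdpoz1*. This exon (chr3:93676195-93676310, 116 bp) is noncoding and lies upstream of the coding exon. The group was followed up after its members had been seen, and what follows is a description. Within 1 Mb of the cluster the exon had 23 matches of at least 87 bp, itself included, with 78.9% to 100% identity. Each match was assigned to the next annotated start site of a gene or pseudogene on its own strand, 0 to 8969 bp away. Its place at or upstream of a start site follows from that rule, and the distances have no background. Such a match lay 6515 bp upstream of *Tdpoz2*, 5086 bp upstream of *Tdpoz3*, 4785 bp upstream of *Tdpoz4* and 1762 bp upstream of *Tdpoz5*, outside the annotated models of these genes. GFP-positive peaks lay over 8 of 23 matches (34.8%), and GFP-negative peaks over 0 of 23. Windows of the median match length (114 bp), from the first to the last match, gave a background. Of these, 9.97% lay under a GFP-positive and 2.04% under a GFP-negative peak, so 0 of 23 shows no lack of GFP-negative peaks. The 8 of 23 is not independent of how the exon was found, since 5 of the 8 matches lie under peaks of the group that led to it. Setting 34.8% against 9.97% would therefore restate that choice. The other 3 of the 8 are those of *Gm5542*, *Gm9131* and *Spopfm3*, further along the chromosome.

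Among the members, the match upstream of *Tdpoz3* was under a GFP-positive peak (chr3:93820614-93821348), with its summit 24 bp from the middle of the match, a fold enrichment of 5.21 and a −log10 q of 5.76. This summit sequence has a copy number of 1, so most of its 31-mers occur nowhere else. The exon of *Tdpoz1* itself was not under a peak, and the nearest summit lay 849 bp from its middle. The matches of *Tdpoz2*, *Tdpoz4* and *Tdpoz5* were not under a peak either, the nearest summits being 8548, 1262 and 2152 bp away. The other 7 matches under a peak had fold enrichments of 2.81 to 4.19. By the next start site they were assigned to the protein-coding genes *Gm5773*, *Gm9117* and *Spopfm3* (*Gm5286*) and the loci *Gm9113*, *Gm9124*, *Gm5542* and *Gm9131*. The window from the start of the match upstream of *Tdpoz3* to 60 bases past the summit shows it, its longest stretch equal to the *Tdpoz1* exon being in capitals.
Upstream of Tdpoz3, chr3:93820934-93821072, plus strand: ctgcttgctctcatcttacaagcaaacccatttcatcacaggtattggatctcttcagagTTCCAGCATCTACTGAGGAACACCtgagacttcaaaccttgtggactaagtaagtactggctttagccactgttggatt

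**Figure D4:**
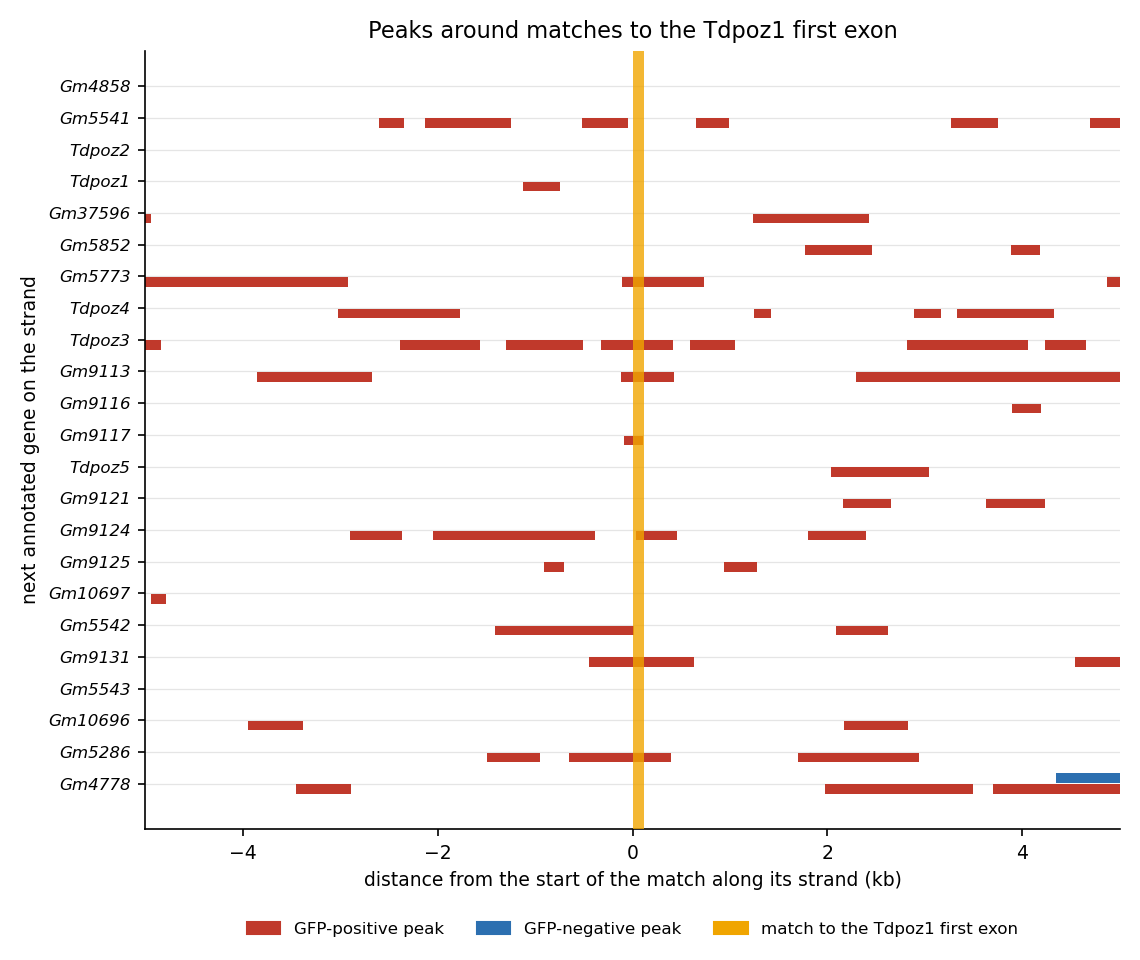
Peaks within 5 kb of the 23 matches to the first exon of *Tdpoz1* (yellow bar), with distance from the start of the match along its strand on the x axis (kb) and 1 row per match named by the next annotated gene, GFP-positive peaks in red and GFP-negative peaks in blue. Red bars cross the match in 8 rows, of which 5 show peaks of the group that led to the exon. No blue bar does, where 2.04% of windows of this length lay under a GFP-negative peak.

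The other genes of the family were counted in the same way, and some of their regions are also regions of the members. On chromosome 3, GFP-positive promoter peaks lay at 3 of 7 relatives, *Tdpoz9* (1 peak), *Spopfm1* (1) and *Spopfm3* (2), and at none of *Tdpoz6*, *Tdpoz7*, *Tdpoz8* and *Spopfm2*. GFP-negative promoter peaks lay at 0 of 7. Over all protein-coding genes these shares were 61.9% and 70.0%, so the GFP-positive count of the relatives was not above the background. Of the 47 regions near these relatives, 38 held GFP-positive peaks alone (80.9%, 67.5 to 89.6), 8 were common and 1 held a GFP-negative peak alone, the latter near *Tdpoz8*, which lies apart from the rest and had 2 GFP-positive peaks and 1 GFP-negative peak. *Tdpoz9* had 16 GFP-positive peaks and 1 GFP-negative peak. *Spop* and *Spopl* are the widely expressed genes of the family, on other chromosomes. Both had a promoter peak in both lists, and of the 25 regions near them 5 held GFP-positive peaks alone (20%, 8.86 to 39.1), 8 were common and 12 held GFP-negative peaks alone. The share of 20% was near the 18.4% of all regions, and 23 of the 25 regions lay near *Spop* alone. No test between these genes and the cluster was made.

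The windows of the members overlapped 17 other annotated genes. A GFP-positive peak lay over the body of 7 of them, the protein-coding *Gm9117* and the pseudogenes *Gm5541*, *Gm37430*, *Gm9113*, *Gm9121*, *Gm9124* and 1 of the loci named *Gm18433*. GFP-negative peaks lay over 0 of the 17. Of all 55413 annotated genes, 36.3% had a GFP-positive and 41.3% a GFP-negative peak over the body, so the 7 of 17 was near the background. GFP-negative peaks lay in the promoters of *Gm37430* and of the *Gm18433* locus with a GFP-positive peak, both at common regions. The other protein-coding genes here, *Gm37596* (*Tdpoz6*) and *Gm5773*, the pseudogenes *Gm38086*, *Gm9116*, *Gm37185*, *Gm37104*, *Gm37807*, *Gm37481* and the other *Gm18433* locus, and the unconfirmed locus *Gm38207* had none over the body. *Gm5773*, between *Tdpoz1* and *Tdpoz4*, had 31 GFP-positive peaks and 1 GFP-negative peak within 50 kb.

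Other multi-copy families of the 2-cell stage gave similar values. GFP-positive-specific regions were 67 of 71 near *Zscan4a* to *Zscan4f* (94.4%, 86.4 to 97.8) and 31 of 36 near the *Usp17l* genes (86.1%, 71.3 to 93.9), and both intervals overlap that of the *Tdpoz* genes. A copy number of 2 or more was found at 80.3% of the *Zscan4* and 55.6% of the *Usp17l* regions, beside 69.6% here. Promoters with a GFP-positive peak were 4 of 6 and 5 of 5, and those with a GFP-negative peak 0 in both families. Over all protein-coding genes the shares were 61.9% and 70.0%.

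The protein-coding genes outside these windows with the most similar profile were sought over 6 counts per gene, the peaks of each list in promoter, body and flank as log2(count + 1). Nearest to the median of the *Tdpoz* genes were *Gm6803* and *Gm8332* on chromosome 12, each at a Euclidean distance of 0.0780, with 18 GFP-positive and 2 GFP-negative peaks. *Gm21731* on chromosome 13 (distance 0.441), *Gm5788* (0.585) and *Gm2042* (0.590) on chromosome 12 followed, with 14 to 20 GFP-positive and 1 or 2 GFP-negative peaks. The members themselves lay at 0 (*Tdpoz5*) to 1.28 (*Tdpoz2*), so these 5 genes were nearer to the median than 4 of the 5 members.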

How the data were processed

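DPPA4 CUT&RUN was analysed from 2 deposited peak lists, 1 per sorted state, each pooled by the authors over 2 of the 4 DPPA4 libraries. Samples were grouped by their titles. The IgG libraries, 1 of GFP-negative and 1 of bulk cells, were not used here. No IgG library of GFP-positive cells is among the samples, so the GFP-positive peaks could not be set against an IgG background of their own state. According to the submitters' processing notes and the methods of the study, the authors aligned reads to mm10 with STAR 2.7.10, giving reads with several matches 1 best or random place, removed duplicates with Picard 2.26.0, dropped blacklisted high-signal regions and called peaks with MACS2 2.2.6. SAMtools 1.14 and bedtools 2.30.0 are also named. Random placement spreads signal over copies of a repeat. The deposited fold enrichment is the authors' ratio of a summit to local background. The deposited −log10 q is the authors' peak significance. The deposited score and the −log10 p were not used, and 0 columns held values of a single sample.

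Coordinates are 1-based. No peak ended beyond a chromosome of GRCm38.p6. A peak was near a gene when any base lay within 50 kb of the body in GENCODE vM21, and was placed in promoter, body or flank in that order. Copy number and soft-masking came from the RefSeq GRCm38.p6 sequence, alignments from BLAST+ 2.17.0 (e-value 1e-05), identities between coding sequences from global alignment in Biopython 1.88, and intervals from scipy 1.17.1. *Tdpoz7* to *Tdpoz9* and *Spopfm1* to *Spopfm3* were found in GENCODE through RefSeq synonyms, and *Tdpoz6* (*Gm37596*) through the gene table of the study. The merging rule and the copy counter were tested on simulated data. Named genes were the 5 members, the family, the genes overlapping the windows and the 5 genes of the most similar profile. Named peaks were the strongest in each list per member, all promoter peaks and all with a −log10 q of at least 5. The summit sequences of common regions and of the first exon match were picked for display after the alignments had been seen. The members and lists were chosen with earlier results of these data known. Other windows, thresholds, promoter limits and overlap rules were tried, as given in the closing section.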

Additional observations from a re-analysis of the deposited data

How the results depend on the processing

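GFP-positive-specific regions made up most of the regions under each alternative tried, but the counts followed the window and the threshold. The 62 GFP-positive-specific regions became 31 within 20 kb, 38 at a −log10 q of at least 2, 8 at a −log10 q of at least 5 and 20 at summits with a copy number of 1. At these thresholds some common regions counted as specific to 1 list, because the peak of the other list fell below. Their share of 89.9% became 72.7% at a −log10 q of at least 5 and 95.2% at summits with a copy number of 1. Beside the 95.2%, 11615 of all 82354 regions with a copy number of 1 were GFP-positive-specific. No share over all regions is given for the 72.7%, the threshold of 2, the changed overlap rule or the shortened GFP-negative list. The share of summits with a copy number of 2 or more, 69.6%, became 57.6% within 20 kb, beside 17.4% of all regions. When 10 or more copies were required the share was 11.6%, near the 12.4% of all regions. The number of genes with a GFP-positive promoter peak fell from 4 to 0 with the threshold raised to 5, since fewer peaks remained. It was 3 at a threshold of 2, where *Tdpoz1* was lost. No share of protein-coding genes is given at these thresholds, so these counts have no background. The number with a GFP-negative promoter peak was 0 under each of its alternatives. A window of 100 kb added 2 GFP-negative-specific regions. With the GFP-negative list cut to the length of the GFP-positive list, 65 regions were GFP-positive-specific and 4 common. No paired analysis was possible because each list pools its replicates. Without replicates and totals of kept reads, a weak peak in 1 list and its absence from the other cannot be told from a difference in depth or cell number.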
